A study of Mus musculus with 7 samples.

Results

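Macrophages are the resident and recruited phagocytes of peripheral nerve and its ganglia, and the genes described here are 35 that they are known for, of 54309 genes in the table, each found by its symbol in 1 row. They cover the leukocyte and macrophage lineage (9 genes), complement C1q (3), Fc receptors and their ITAM signalling partners (6), MHC class II (4), scavenger and tissue-resident receptors (5), and lysosomal, oxidase and secreted effector proteins (8). Transcript abundance was compared between 4 samples labelled ZT20 and 3 labelled ZT8, where Zeitgeber time (ZT) counts the hours from lights on. All were L4-6 dorsal root ganglia, which hold the sensory neurons of the hindlimb, from male C57bl/6 mice aged 6-8 weeks. The sciatic nerve had been injured at that ZT and the ganglia were taken 72 h later, so the time of injury and the time of dissection were the same and cannot be told apart, and every sample came from an injured mouse. Per the labels' protocols, the ganglia were digested with Dispase II, Collagenase Type II and Papain, and neurons were then enriched over a BSA gradient, so the immune transcripts measured are those of cells that passed this step with the neurons. The labels do not say whether replicates came from separate mice, and p-values measure only the spread between these samples.

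In a ganglion, macrophages lie close to the neurons and their satellite glia, and after a peripheral nerve injury they become more numerous around the injured cell bodies. They take up antibody-coated and complement-coated material through Fc and complement receptors, degrade it in lysosomes, and load peptides onto MHC class II molecules for display to T cells. Class II molecules consist of an alpha and a beta chain that are assembled with the invariant chain Cd74 and loaded with the help of H2-DM, and their genes are switched on together by the coactivator Ciita acting through a shared group of promoter elements.

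The libraries differed in ways that touch these genes. ZT20 replicates 3 and 4 are labelled male but had the Y-linked gene Ddx3y at 0 TPM and Xist at 2.21 and 2.3 TPM, and ZT20 replicate 2 had both Ddx3y (11.7 TPM) and Xist (1.08 TPM). ZT8 replicate 2 stood apart on the first principal component and had 18297 genes above 0 TPM, against 22541 to 25238 in the other libraries. Library identifiers were numbers at ZT20 and letters at ZT8, so any batch behind these schemes cannot be told apart from the group. Neuronal markers were abundant in every sample, with a summed level of 16429 to 20557 TPM at ZT20 and 12871 to 19437 TPM at ZT8. The defining macrophage genes Csf1r, Adgre1 and Cd68 were above 2 TPM in all 7 samples, while the microglial markers Sall1 and Siglech were below 1 TPM in each.

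Of the 35 genes, 34 had a mean of at least 1 TPM and were tested, and Cd163 was below that filter. At an adjusted p of 0.05 (limma on log2(TPM + 1), Benjamini-Hochberg adjustment over all 14800 tested genes), 5 of the 34 differed between ZT20 and ZT8 (14.7%), against 16.4% of all tested genes. Mrc1 and Itgam were higher at ZT20 (2 genes, against 12.8% of all tested genes higher). Apoe, C1qa and Ms4a7 were lower (3 genes, against 3.61% lower). Differences are given on the log2(TPM + 1) scale as ZT20 minus ZT8, which understates the change of genes with low levels. Their median over the 34 genes was −0.15, beside 0.23 over all tested genes. Scaling by median ratios moved the latter to 0.033, and with it 6 members passed, Apoe, C1qa, C1qb, H2-Ab1, Mrc1 and Ms4a7. Genes higher at ZT20 made up 78.1% of all calls as deposited, 49.3% with median-ratio scaling, 55.7% with quantile normalization and 42% after correction for transcript length and GC content. In 9 of the 34 genes (26.5%) the groups did not overlap, against 33.2% of all tested genes, with all ZT20 values above in 3 (against 24.5% of all tested genes) and below in 6 (against 8.72%). The share of members that passed was thus near that of the table as a whole, and 29 of 34 did not pass. At an unadjusted p under 0.05 there were 10 members of 34 and 5122 of all 14800 tested genes.

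These counts rest on few libraries. Without ZT20 replicates 3 and 4, the libraries that lacked Y-linked transcripts, limma called 0 members and 0 genes at the adjusted threshold, with 6 members and 2425 genes at an unadjusted p under 0.05, while the differences of Apoe, C1qa, Ms4a7, Mrc1 and Itgam were −0.93, −1.17, −1.14, 1.32 and 1.51. Without ZT20 replicate 1, 3 or 4 in turn Apoe alone passed among the members, without ZT8 replicate 3 Apoe and C1qa, and without ZT8 replicate 1 there were 6 (Apoe, C1qa, Itgam, Itgb2, Laptm5 and Mrc1). Without the library highest in neutrophil markers in each group (ZT20 replicate 1 and ZT8 replicate 2) Apoe alone passed.

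The class II genes had the largest negative group median, and class II promoters are known for a shared group of elements, so sequences of this pathway come first. From RefSeq (build GRCm38.p6), the 150 bases before the start of H2-Aa on chr17:34287824-34287973 (minus strand), of H2-Eb1 on chr17:34305717-34305866 (plus strand) and of H2-DMb1 on chr17:34153041-34153190 (plus strand) are shown 5′ to 3′. Capitals mark GATTGG, the core of the Y box that the factor NF-Y binds, or its reverse complement CCAATC.
H2-Aa: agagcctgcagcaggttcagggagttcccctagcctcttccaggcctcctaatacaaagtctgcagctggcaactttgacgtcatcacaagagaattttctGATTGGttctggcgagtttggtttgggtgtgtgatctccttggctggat
H2-Eb1: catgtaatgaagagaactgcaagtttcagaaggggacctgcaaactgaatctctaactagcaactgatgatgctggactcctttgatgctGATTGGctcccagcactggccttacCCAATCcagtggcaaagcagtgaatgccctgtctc
H2-DMb1: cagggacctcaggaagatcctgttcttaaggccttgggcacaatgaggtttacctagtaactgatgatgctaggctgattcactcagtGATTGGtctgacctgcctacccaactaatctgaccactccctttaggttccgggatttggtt
The element begins 49 bases before the start in H2-Aa, 60 in H2-Eb1, which holds it once more on the opposite strand 35 bases before, and 62 in H2-DMb1. Searched on both strands, it was present in 3595 of 32851 promoter windows of this length (10.9%) and in those of 5 of the 27 members matched by symbol (Cd163, Cd68, H2-Aa, H2-Eb1 and Spp1). H2-Ab1 and Cd74 were among the 8 members that were not searched. A match describes the letters in the window and shows no binding.

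All 4 MHC class II genes had a lower mean at ZT20 than at ZT8, none passed the test, and the median of their differences was −1.15 on the log2 scale. H2-Ab1, the class II beta chain, was 117, 396, 331 and 151 TPM in ZT20 replicates 1 to 4 and 1640, 469 and 491 TPM in ZT8 replicates 1 to 3. Every ZT20 value lay below every ZT8 value, and the largest value came from ZT8 replicate 1. Its difference was −1.71 (SE 0.54, 95% interval −2.96 to −0.47, adjusted p = 0.0628 by limma with Benjamini-Hochberg adjustment). H2-Aa, the matching alpha chain, was 35.8, 99.3, 98.1 and 50.5 TPM at ZT20 and 426, 105 and 117 TPM at ZT8, again without overlap, although ZT20 replicates 2 and 3 came near the lowest ZT8 sample. The H2-Aa difference was −1.41 (SE 0.53, interval −2.62 to −0.19, adjusted p = 0.101).

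H2-Eb1, a further beta chain, was 36.4, 74, 91.7 and 46.6 TPM at ZT20 and 257, 57.3 and 86.4 TPM at ZT8, and its groups overlapped (difference −0.88, SE 0.50, adjusted p = 0.242). Its usual partner H2-Ea was listed at 0 in all 7 samples, and C57BL/6 mice are known not to express it. Cd74, the invariant chain that holds the peptide groove until loading, was 244, 748, 752 and 398 TPM at ZT20 and 2042, 428 and 692 TPM at ZT8. Its groups overlapped as well (difference −0.80, SE 0.56, adjusted p = 0.334). Within ZT20 all 4 genes were higher in replicates 2 and 3 than in replicates 4 and 1, with replicate 1 the lowest. Within ZT8 replicate 1 was the highest for each of the 4 genes. Without ZT8 replicate 1, the differences of Cd74 and H2-Eb1 were −0.17 and −0.27, and those of H2-Ab1 and H2-Aa were −1.12 and −0.76.

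Levels were also set against that of Cd74 in the same sample. H2-Ab1 was 0.38 to 0.529 times the level of Cd74 at ZT20 and 0.709 to 1.1 times at ZT8. The ratio of H2-Aa to Cd74 was 0.127 to 0.147 at ZT20 and 0.17 to 0.244 at ZT8, again without overlap. That of H2-Eb1 to Cd74 was 0.099 to 0.149 and 0.125 to 0.134, which overlapped. These ratios were chosen after the values were seen and were not tested.

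Among 16 other genes of the class II pathway, 12 were tested. As higher 0 passed and as lower 1, against 12.8% and 3.61% of all tested genes. Their median difference was −0.18, beside 0.23 over all tested genes. H2-DMb1, a beta chain of the H2-DM peptide exchange factor, was 7.31, 16.1, 14 and 8.52 TPM at ZT20 and 76, 30.4 and 26.1 TPM at ZT8. It was lower in every ZT20 sample (difference −1.75, SE 0.40, adjusted p = 0.0231), and reads could be split with its close paralog H2-DMb2. The call was lost without ZT20 replicate 1 (adjusted p = 0.0609), replicate 3 (0.0586) or replicate 4 (0.0737). Its partner chain H2-DMa was 35.1, 39.2, 45.4 and 29.5 TPM at ZT20 and 67.1, 22.3 and 39.6 TPM at ZT8, with overlapping groups (difference −0.08, adjusted p = 0.877). Ciita, the coactivator of class II transcription, was 0.772, 0.61, 2.23 and 0.729 TPM at ZT20 and 3.84, 0.429 and 1.06 TPM at ZT8 (difference −0.28, adjusted p = 0.692). Both Ciita and H2-DMa had ZT8 replicate 1 as their highest sample.

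**Figure D1:**
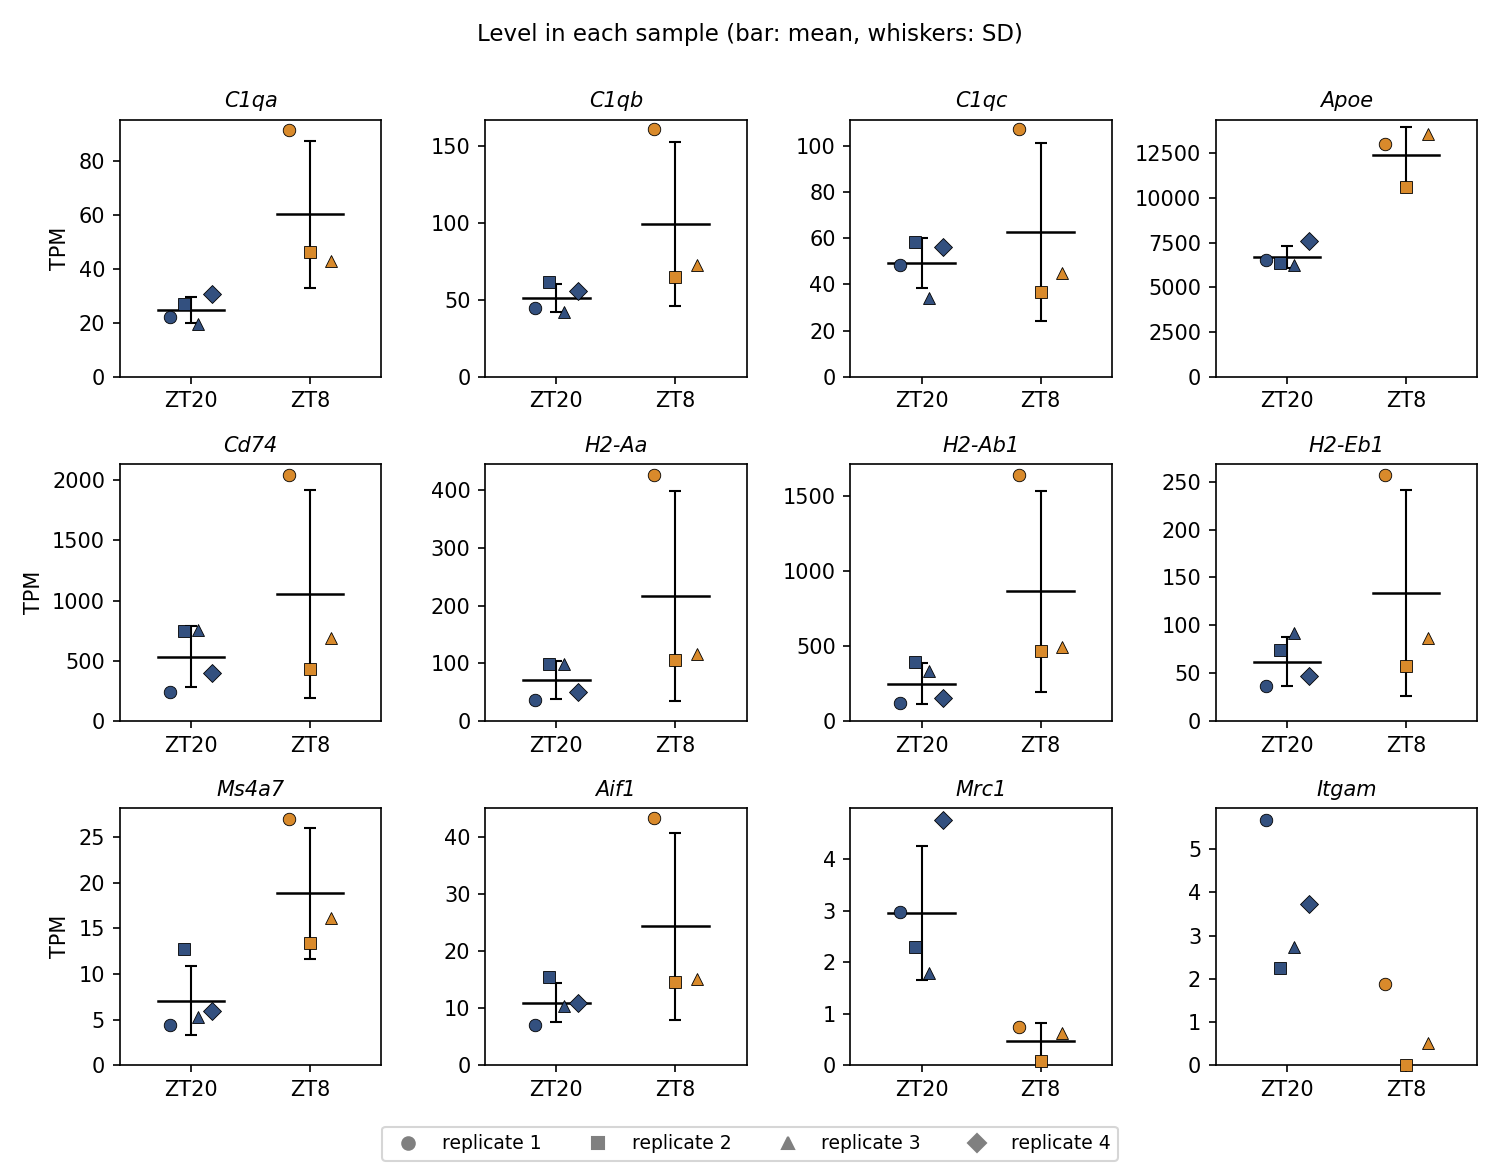
Level in TPM of 12 of the genes in each of the 4 ZT20 samples (blue) and 3 ZT8 samples (orange), with symbols for the replicate number, horizontal bars for group means and whiskers for SD. Itgam has no bar because it is listed at 0 in 1 sample. Apoe, C1qa and Ms4a7 separate the groups downward at ZT20 and Mrc1 and Itgam upward, and ZT8 replicate 1 lies far above the other ZT8 samples for the class II and C1q genes.

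Complement C1q, which tags debris and synapses for uptake, is assembled from equal numbers of 3 chains encoded by neighbouring genes. C1qa fell at ZT20, while C1qb and C1qc did not pass the test, and whether the chains differ from each other was not tested. C1qa was 22.4, 27.2, 19.7 and 30.6 TPM at ZT20 (mean 25.0 ± 4.86, SD, n = 4) and 91.8, 46.3 and 43 TPM at ZT8 (60.4 ± 27.3, n = 3). All 4 ZT20 values lay below all 3 ZT8 values, and the mean was 2.42 times as high at ZT8. The C1qa difference was −1.17 (SE 0.28, interval −1.80 to −0.54, adjusted p = 0.0253) and −1.08 after correction for transcript length and GC content (adjusted p = 0.0462). It missed the threshold without ZT20 replicate 1 (adjusted p = 0.0669), replicate 3 (0.0818) or replicate 4 (0.0533).

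C1qb was 44.8, 61.7, 42.3 and 55.7 TPM at ZT20 and 161, 65 and 72.5 TPM at ZT8, without overlap (difference −0.84, SE 0.30, interval −1.53 to −0.15, adjusted p = 0.0887). Without ZT8 replicate 1 that difference was −0.43, and without ZT8 replicate 2 it passed (−1.08, adjusted p = 0.0466). C1qc was 48.3, 58.3, 34.1 and 56.3 TPM at ZT20 and 107, 36.6 and 44.8 TPM at ZT8, with overlap (difference −0.21, SE 0.35, adjusted p = 0.697). Its difference turned to 0.25 without ZT8 replicate 1. The ratio of C1qa to C1qc was 0.464 to 0.578 at ZT20 and 0.854 to 1.27 at ZT8, and that of C1qb to C1qc was 0.929 to 1.24 and 1.5 to 1.78. Neither ratio overlapped between the groups, and both were computed after the values were seen and not tested. Of 14 other complement components and receptors, 12 were tested and 0 passed, against 2 at an unadjusted p under 0.05, with a median difference of −0.29. C3, the central component, was 7.64, 3.22, 2.14 and 2.36 TPM at ZT20 and 2.42, 0 and 1.54 TPM at ZT8 (difference 1.11, adjusted p = 0.155), and C4b differed by −0.26 (adjusted p = 0.609).

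The scavenger and tissue-resident receptors moved in both directions. Of 4 tested genes 1 passed as higher and 1 as lower, against 12.8% and 3.61% of all tested genes. Mrc1, the mannose receptor CD206, was 2.98, 2.29, 1.79 and 4.76 TPM at ZT20 (2.95 ± 1.30, n = 4) and 0.732, 0.0805 and 0.622 TPM at ZT8 (0.478 ± 0.349, n = 3). It was higher in every ZT20 sample, with means 6.18-fold apart and a difference of 1.40 (SE 0.33, interval 0.64 to 2.15, adjusted p = 0.0259). Ms4a7, a membrane protein of macrophages, took the opposite course at 4.44, 12.7, 5.23 and 5.89 TPM at ZT20 (7.05 ± 3.78) and 27, 13.4 and 16.1 TPM at ZT8 (18.8 ± 7.23). It fell by 1.34 (SE 0.36, interval −2.16 to −0.53, adjusted p = 0.0373), although ZT20 replicate 2 and ZT8 replicate 2 differed by less than 1 TPM. The ratio of Ms4a7 to Mrc1 was 1.24 to 5.52 at ZT20 and 25.9 to 166 at ZT8, a comparison chosen after the values were seen and not tested.

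The Mrc1 call was lost without ZT20 replicate 1 (adjusted p = 0.069), ZT20 replicate 3 (0.0521), ZT20 replicate 4 (0.0743) or ZT8 replicate 3 (0.0504), and after the correction for length and GC content its difference was 0.90 (adjusted p = 0.109). The Ms4a7 call was lost without ZT20 replicate 1 (adjusted p = 0.0935), ZT20 replicate 3 (0.111), ZT20 replicate 4 (0.102), ZT8 replicate 1 (0.0937) or ZT8 replicate 3 (0.0718). With the correction for length and GC content Ms4a7 differed by −1.56 (adjusted p = 0.03).

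Mertk, which recognises dying cells through bridging ligands, was 1.44, 2.73, 1.76 and 3.46 TPM at ZT20 and 0.532, 0.397 and 1.24 TPM at ZT8. Its groups did not overlap (difference 0.95, SE 0.32, interval 0.23 to 1.67, adjusted p = 0.0717). Cd163, the haemoglobin-haptoglobin receptor, was 1.34, 1.03, 0.592 and 1.77 TPM at ZT20 and 0.482, 0.274 and 0.175 TPM at ZT8, below the 1 TPM mean required for the test. Without that filter its difference was 0.71 (adjusted p = 0.151), and its groups did not overlap either. Mrc1, Mertk and Cd163 thus had all ZT20 values above all ZT8 values, as had 24.5% of all tested genes. After the correction for length and GC content the Mertk difference was 0.55 (adjusted p = 0.289 by limma). Cd14, a coreceptor for bacterial lipopolysaccharide, overlapped at 20.3 to 52.2 TPM at ZT20 and 12.4 to 27.5 TPM at ZT8 (difference 0.72, adjusted p = 0.182).

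Among 12 other engulfment receptors and bridging ligands, 10 were tested and 0 passed, with 0 at an unadjusted p under 0.05 (against 5122 of all 14800 tested genes) and a median difference of 0.16. The Mertk relatives Axl and Tyro3 differed by 0.017 (adjusted p = 0.983) and 1.28 (adjusted p = 0.185). Axl took the opposite sign under 12 of 19 alternatives, including both other scalings.

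Of the 9 lineage genes, 1 rose at ZT20, against 12.8% of all tested genes, and the others did not pass. Their median difference over the 9 was 0.37, beside 0.23 over all tested genes. Itgam, the CD11b integrin chain of macrophages and neutrophils, was 5.67, 2.24, 2.74 and 3.74 TPM at ZT20 and 1.87, 0 and 0.52 TPM at ZT8. Its groups did not overlap (difference 1.44, SE 0.41, interval 0.50 to 2.37, adjusted p = 0.0461). That call was lost in 6 of the 7 fits that left out a library, with adjusted p between 0.0594 and 0.12, and held only without ZT8 replicate 1 (0.0246). Itgb2, the chain that pairs with it, was 28.2, 13.4, 16.4 and 15.1 TPM at ZT20 and 20.3, 3.22 and 7.94 TPM at ZT8 (difference 0.99, adjusted p = 0.191).

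Aif1, the actin-binding protein IBA1 used to stain macrophages, had the opposite sign, at 6.99, 15.4, 10.4 and 10.9 TPM at ZT20 and 43.2, 14.6 and 15.1 TPM at ZT8 (difference −0.95, SE 0.39, adjusted p = 0.127). Its groups overlapped by ZT20 replicate 2. The receptors that set macrophage survival and position overlapped too. Csf1r, the receptor for macrophage colony-stimulating factor, was 8.37, 7.31, 8.62 and 12.4 TPM at ZT20 and 14, 12.6 and 5.85 TPM at ZT8 (difference −0.16, adjusted p = 0.738). Cx3cr1, the fractalkine receptor, ranged from 3.17 to 5.85 TPM and from 4.66 to 9.63 TPM (difference −0.34, adjusted p = 0.445). Ccr2, the chemokine receptor of recruited monocytes, ranged from 6.02 to 8.83 TPM and from 2.1 to 9.77 TPM (difference 0.51, adjusted p = 0.379).

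The pan-leukocyte genes spanned wide ranges at ZT8. Ptprc, the CD45 phosphatase, was 8.75 to 13 TPM at ZT20 and 2.61 to 11 TPM at ZT8 (difference 0.62, interval −0.31 to 1.56, adjusted p = 0.308). Laptm5, a lysosomal protein of blood cells, was 16.5 to 24 TPM and 10.2 to 36.2 TPM (difference 0.37, adjusted p = 0.53). Adgre1, the macrophage antigen recognised by the F4/80 antibody, was 4.11 to 13.5 TPM and 2.85 to 10.2 TPM (difference 0.19, adjusted p = 0.79), and its sign turned under both other scalings. In these bulk samples, fewer cells of a type and less RNA per cell cannot be told apart.

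Of 15 myeloid transcription factors and growth factor signals, 10 were tested. As higher 2 passed and as lower 0, against 12.8% and 3.61% of all tested genes. Their median difference was 0.14, beside 0.23 over all tested genes. Runx1 was 18.1, 19.4, 24.5 and 17.1 TPM at ZT20 and 4.58, 12.9 and 5.69 TPM at ZT8 (difference 1.36, SE 0.31, adjusted p = 0.0231), and Maf rose as well (1.29, SE 0.30, adjusted p = 0.0249). Both are also transcribed in subsets of sensory neurons, so neither is a macrophage gene alone, and after the correction for length and GC content both missed the threshold (adjusted p = 0.164 and 0.159). Among the 7 fits that left out 1 library, Runx1 kept its call without ZT8 replicate 2 (adjusted p = 0.00346) and reached 0.0514 to 0.0796 in the other fits, and Maf lost it without ZT20 replicate 1 (0.067), 3 (0.0749) or 4 (0.0822). Spi1, the PU.1 factor that defines the myeloid lineage, was 22.5, 9.88, 11.3 and 12 TPM at ZT20 and 19, 18.2 and 4.35 TPM at ZT8 (difference 0.16, adjusted p = 0.835). Irf8, a partner of Spi1, was 5.89, 4.17, 9.99 and 3.81 TPM at ZT20 and 19.6, 11.4 and 6.61 TPM at ZT8 (difference −0.92, adjusted p = 0.137).

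None of the 6 genes of Fc receptors and ITAM signalling passed the test, and 0 reached an unadjusted p under 0.05 with limma (against 5122 of all 14800 tested genes), with a median difference of −0.053 and 0 genes without overlap. Tyrobp, the DAP12 adaptor, was 52.7, 26, 29.7 and 29.2 TPM at ZT20 and 60.8, 28.5 and 16.9 TPM at ZT8 (difference 0.091, interval −0.83 to 1.01, adjusted p = 0.89). Fcer1g, the common Fc receptor gamma chain, was 75, 50.7, 37.2 and 45.3 TPM at ZT20 and 75.5, 52.9 and 29.7 TPM at ZT8 (difference 0.033, interval −0.71 to 0.78, adjusted p = 0.951). For these adaptors replicate 1 was the highest sample in each group, and the sign of both turned under both other scalings. Trem2, a lipid-sensing receptor that signals through Tyrobp, was 2.9, 2.21, 2.07 and 3.58 TPM at ZT20 and 10.4, 4.48 and 2.97 TPM at ZT8 (difference −0.79, SE 0.37, adjusted p = 0.164).

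The IgG receptors overlapped in each case. Fcgr1, the high-affinity receptor, was 0.956 to 3.93 TPM at ZT20 and 2.44 to 7.12 TPM at ZT8 (difference −0.66, adjusted p = 0.265). Fcgr3, a low-affinity activating receptor, was 19.9 to 39.9 TPM and 21.3 to 46.7 TPM (difference −0.14, adjusted p = 0.775). Fcgr2b, the inhibitory receptor, was 4.44 to 8.76 TPM and 2.44 to 10.9 TPM (difference 0.18, adjusted p = 0.777, with the sign turned under both other scalings). Of 15 further genes of this pathway 14 were tested and 0 passed, against 2 at an unadjusted p under 0.05. The kinase Syk, which relays ITAM signals, differed by −0.15 (adjusted p = 0.844).

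Among the lysosomal, oxidase and secreted effectors 1 of 8 passed (against 16.4% of all tested genes), and it was the most abundant member. Apoe, a lipid carrier made by macrophages and, in ganglia, by satellite glia, was 6549, 6379, 6261 and 7615 TPM at ZT20 (6701 ± 621, n = 4) and 13032, 10623 and 13557 TPM at ZT8 (12404 ± 1565, n = 3). Its groups were far apart, at 1.85 times the mean at ZT8, and it fell at ZT20 by 0.88 (SE 0.13, interval −1.18 to −0.59, adjusted p = 0.00657). The Apoe call held in all 7 fits that left out a library, with differences of −0.99 to −0.82, but quantile normalization gave −0.48 (adjusted p = 0.108). Apoe is also in the list of satellite glia markers. Of these, 6 of 8 had a lower mean at ZT20, against a negative difference in 4979 of all 14800 tested genes. Fabp7 was among the 6 and passed the threshold (difference −0.39, adjusted p = 0.0327 by limma). The part of these cells in the Apoe difference was not tested. Without Apoe the members summed to 2020 to 2608 TPM at ZT20 and to 6398, 2306 and 2933 TPM at ZT8.

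The remaining effectors overlapped between the groups. Ctss, the cathepsin that trims the invariant chain, was 37.5, 65.3, 55.8 and 46.3 TPM at ZT20 and 179, 48.6 and 74.2 TPM at ZT8 (difference −0.78, adjusted p = 0.199), the same order of samples at ZT8 as Cd74. Cybb, the catalytic subunit of the phagocyte oxidase, was 22.5, 11.7, 9.97 and 10.2 TPM at ZT20 and 11.1, 7.54 and 2.88 TPM at ZT8 (difference 0.91, adjusted p = 0.16). Lyz2, lysozyme of macrophages and neutrophils, was 525, 264, 199 and 251 TPM at ZT20 and 376, 373 and 167 TPM at ZT8 (difference 0.01, interval −0.85 to 0.87, adjusted p = 0.987), and its close paralog Lyz1 stayed at 1.65 to 5.98 TPM. Lgals3, the lectin galectin-3, was 101 to 137 TPM and 128 to 190 TPM (difference −0.36, adjusted p = 0.168).

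Cd68, a lysosomal membrane glycoprotein, was 12 to 19.4 TPM at ZT20 and 11.3 to 28.8 TPM at ZT8 (difference −0.12, adjusted p = 0.803). Spp1, the secreted phosphoprotein osteopontin, which sensory neurons make too, was 350 to 521 TPM and 233 to 835 TPM (difference −0.064, adjusted p = 0.918). Gpnmb, a glycoprotein of lipid-laden macrophages, was 1.75 to 2.72 TPM and 1.59 to 6.72 TPM (difference −0.34, adjusted p = 0.541). These 3 genes thus had wider ranges at ZT8 than at ZT20.

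Of 15 lysosomal hydrolases and related proteins, all tested, 0 passed as higher and 2 as lower, against 12.8% and 3.61% of all tested genes. Their median difference was −0.10, beside 0.23 over all tested genes. Npc2, which exports cholesterol from lysosomes, was 84.1, 92.3, 90.6 and 95.8 TPM at ZT20 and 120, 117 and 124 TPM at ZT8 (difference −0.41, SE 0.10, adjusted p = 0.0329). It was lower in every ZT20 sample, with tight replicates, and it is made by most cells. Among the 7 fits that left out 1 library, Npc2 kept its call without ZT8 replicate 2 (adjusted p = 0.0254) and reached 0.0545 to 0.0998 in the other fits. The cathepsins Ctsd and Ctsb differed by 0.37 (adjusted p = 0.231) and −0.066 (adjusted p = 0.736). Of the 5 other oxidase subunits 0 passed, against 2 at an unadjusted p under 0.05, with a median difference of 0.93. Ncf1 was 12, 2.73, 2.5 and 3.77 TPM at ZT20 and 3.23, 0.19 and 1.95 TPM at ZT8 (difference 1.12, adjusted p = 0.194), and Cyba differed by −0.55 (adjusted p = 0.372).

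**Figure D2:**
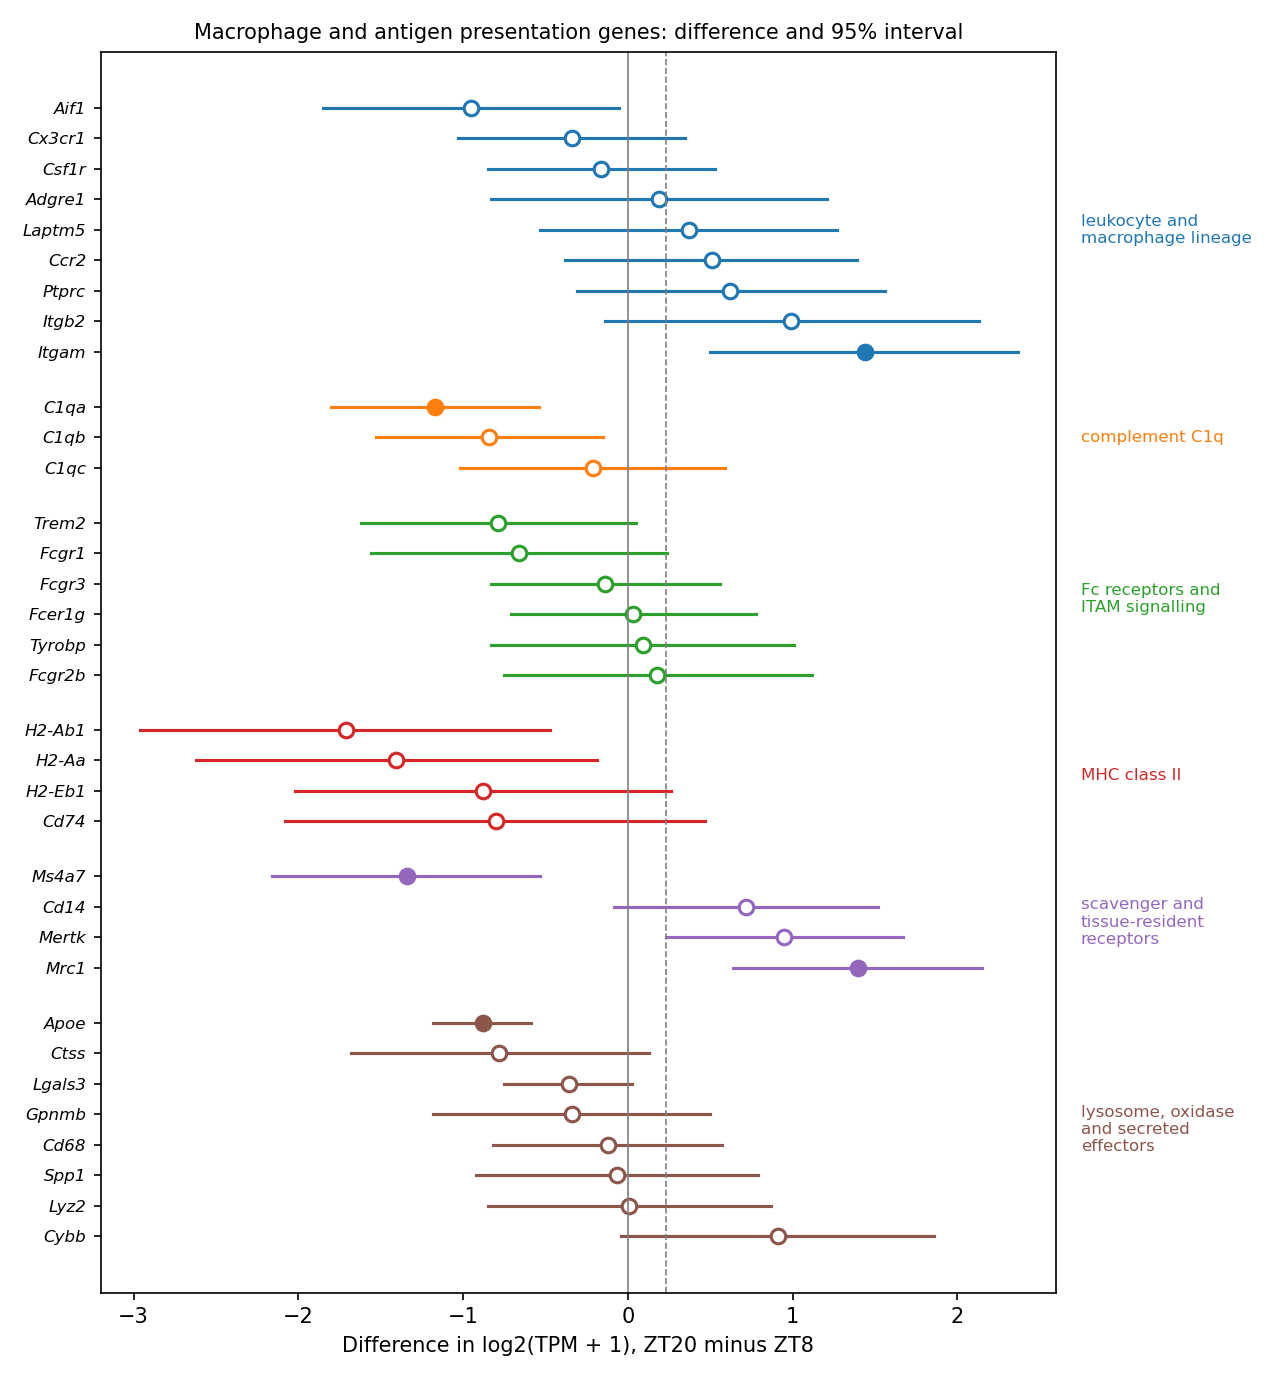
Difference in log2(TPM + 1), ZT20 minus ZT8, of the 34 tested genes in rows by role, with 95% intervals from limma. Filled points passed an adjusted p of 0.05, and the dashed line is the median of all tested genes at 0.23. The C1q and class II genes lie left of 0, while Mrc1 and Itgam, to the right at 1.40 and 1.44, are filled.

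The spread across libraries followed separate patterns. ZT8 replicate 1 was the highest of all 7 samples for 22 of 34 tested members (64.7%), against 10.3% of all tested genes, and the highest of its group for 29 (85.3% against 35.6%). ZT20 replicate 1 was the lowest of its group for 12 members (35.3%, against 27.6% of all tested genes), among them all 4 class II genes. It was the highest of its group for 11 (32.4% against 20.6%), among them Itgam, Itgb2, Tyrobp, Cd14, Lyz2 and Cybb. ZT20 replicate 3 was the lowest of its group for 16 members (47.1%, against 15% of all tested genes). The summed level of the class II genes was 433, 1317, 1273 and 647 TPM at ZT20 and 4365, 1059 and 1388 TPM at ZT8, so that ZT8 replicate 1 lay farther from the other ZT8 samples than these did from the ZT20 samples.

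Markers of other blood cells also varied between libraries, and not all in the same way. Erythroid markers summed to 5001, 2369, 4267 and 6679 TPM at ZT20 and 1603, 9534 and 951 TPM at ZT8. All 9 neutrophil markers had a higher mean at ZT20, where 9821 of all 14800 tested genes had a positive difference. Ngp, Retnlg and Csf3r passed the test as higher, against 12.8% of all tested genes. The neutrophil markers summed to 5195, 1173, 820 and 1048 TPM at ZT20, against 311, 1081 and 109 TPM at ZT8. ZT20 replicate 1 was thus highest both in neutrophil genes and in Itgam, Itgb2, Cybb and Lyz2, which neutrophils also express, and it held the promyelocyte genes Mpo and Elane at 258 and 312 TPM. Plasma cell markers summed to 108, 296, 263 and 127 TPM at ZT20 and 708, 364 and 418 TPM at ZT8, and T and NK cell markers to 9.23, 28.7, 42.9 and 7.88 TPM and 70.9, 35.3 and 22 TPM. From these lists Mzb1 of plasma cells (adjusted p = 0.0432) and Klrb1c of NK cells (adjusted p = 0.0264) passed as lower at ZT20 by limma, against 3.61% of all tested genes. This is the sign that the class II differences had. The other plasma cell markers did not pass or were not tested, with Sdc1 at 94.5 to 122 TPM at ZT20 and 75.7 to 151 TPM at ZT8 and Derl3 and Tnfrsf17 at most 2.32 TPM. Sdc1 made up most of the plasma cell sum in ZT20 replicates 1 and 4, and Jchain was 10.2, 176, 157 and 4.18 TPM at ZT20 and 560, 195 and 317 TPM at ZT8. The plasma cell and the T and NK cell sums, like the class II genes, were highest in ZT8 replicate 1, and at ZT20 they were higher in replicates 2 and 3 than in 1 and 4. B cell markers summed to 4.15 to 10.3 TPM and 6.45 to 13.8 TPM, with Cd79a and Cd79b above 1 TPM and Pax5 and Cd22 below 1 TPM in every sample. Dendritic cell markers summed to 24.4 to 36.6 and 21.3 to 35.1 TPM, with Flt3, Zbtb46 and Cd209a above 2 TPM and Xcr1 and Clec9a below 1 TPM in every sample. The part of these cells in the members' differences was not tested.

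**Figure D3:**
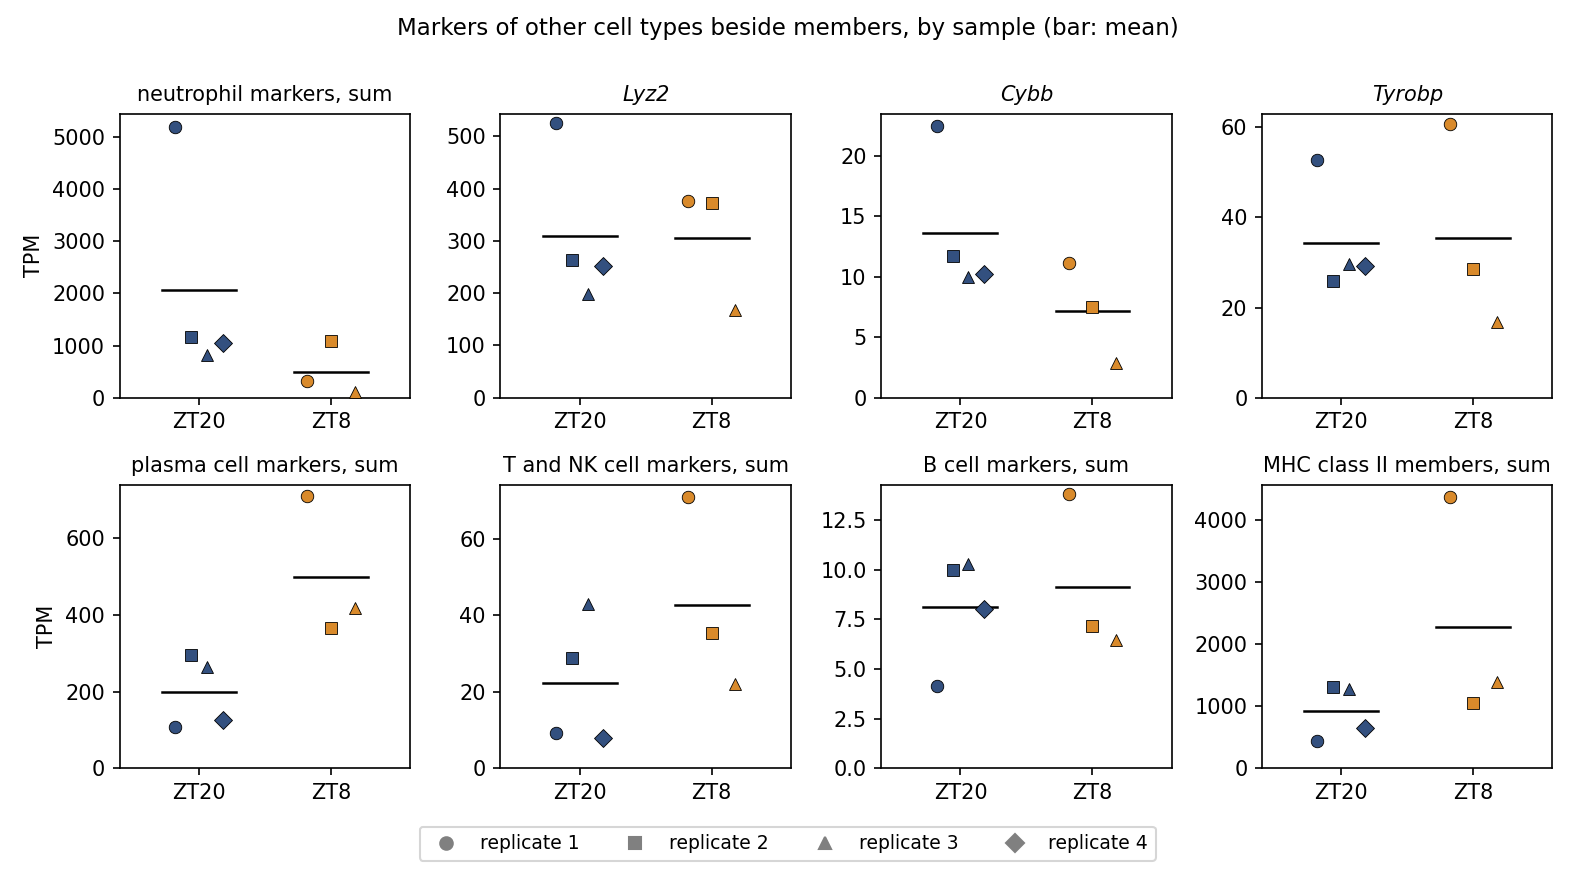
Summed level in TPM of neutrophil, plasma cell, T and NK cell and B cell markers and of the class II members, with the members Lyz2, Cybb and Tyrobp, in each ZT20 (blue) and ZT8 (orange) sample, with bars for group means. ZT20 replicate 1 is highest in neutrophil markers at 5195 TPM and in Lyz2 and Cybb, and ZT8 replicate 1 is highest in the lymphoid and class II panels.

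Differences depended on transcript length across the whole table. Among the 34 tested members the Spearman correlation of the difference with the longest annotated transcript was 0.429, close to 0.41 across 14745 tested genes, which share the same 7 libraries and are not independent. The 17 members with transcripts up to 1669 nt had a median difference of −0.36, and the 17 from 2589 nt had 0.19. After each sample was corrected for length and GC content the correlation was 0.231 for the members and 0.00489 for all genes, and 23 members had a difference nearer 0. Apoe, C1qa and Ms4a7 passed with the correction and Mrc1 and Itgam did not, with the differences of the latter at 0.90 and 0.97. Among members that did not pass, Trem2, with a longest transcript of 4784 nt, went from −0.79 to −1.27 (adjusted p = 0.0519), and H2-Ab1, with 1212 nt, from −1.71 to −1.61 (adjusted p = 0.101).

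**Figure D4:**
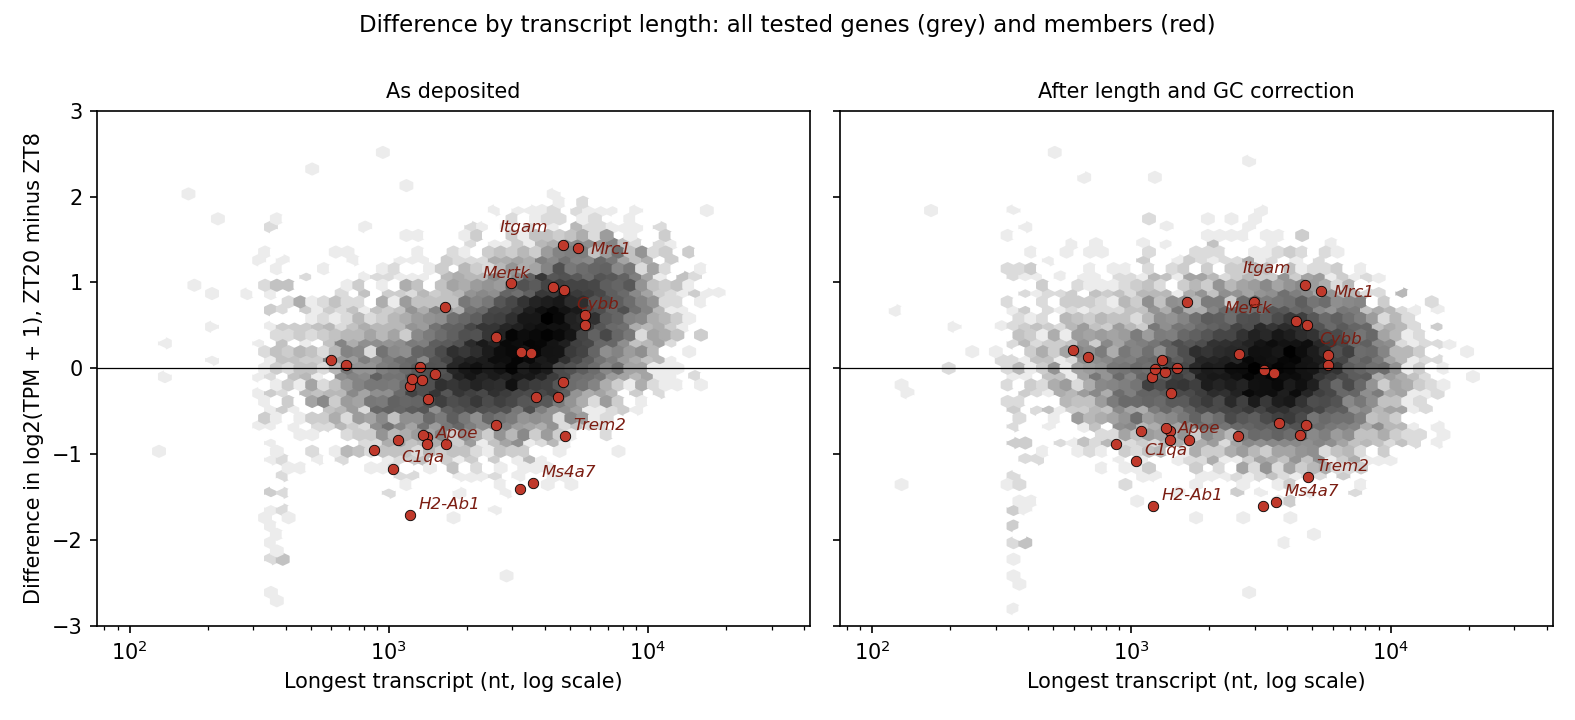
Difference in log2(TPM + 1), ZT20 minus ZT8, against the longest annotated transcript in nucleotides on a log axis, before (left) and after (right) correction for length and GC content. Grey shading is the number of tested genes on a log scale for differences from −3 to 3, and red points are the members. The grey cloud rises with length on the left and is level on the right, while C1qa, Ms4a7 and H2-Ab1 stay below −1 in both.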

How the data were processed

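RNA sequencing was run on 7 samples, and the authors deposited TPM values (transcript abundances, which divide reads by transcript length and scale each sample to the same sum) in 1 table. The submitters' processing notes name FastQC 0.11.9, Trim Galore 0.6.6, Salmon 1.6.0, DESeq2 1.34.0 and build GRCm39; the annotation release is not given in the sources used here. TPM keeps no depth, so depth and counting error are unknown. All 7 columns matched a sample and 0 were left unused.

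Values were analysed as log2(TPM + 1). The 14800 genes whose mean reached 1 TPM were fitted with limma 3.58.1 (lmFit, eBayes with trend, R 4.3.3) over all samples without covariates, two-sided, with Benjamini-Hochberg adjustment and a threshold of 0.05. On simulated data for this comparison (14800 genes, 200 changed by 1.5 log2), 66% of the changed genes were called, 3.65% of calls were unchanged genes, and 0 were called when none changed. The simulated noise was independent for each gene and sample, without the differences between libraries and the length dependence of the real data. These rates may therefore not hold for the real data. Levels are means ± SD.

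The members and the lists were chosen with earlier results of these data known. All 35 members are named, and from each of 7 pathway lists the first 2 genes whose mean reached 1 TPM and up to 4 genes past the threshold. Other genes were named after their values were seen, and a few genes that the rule would name are not reported here.

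Alternatives were median-ratio scaling, quantile normalization, no filter, a minimum mean of 5 TPM, a pseudocount of 0.1, a loess correction for length and GC content (span 0.3), a replicate block, a neuron marker covariate, array weights, leaving out each library, and leaving out both libraries lacking Y-linked transcripts. A neutrophil marker covariate and leaving out the library highest in neutrophil markers in each group were added after seeing the data. Length, GC content and exon overlap came from GENCODE M21 (GRCm38, another build than the authors'), matched by identifier for 99.6% of tested genes, and promoter sequences from RefSeq GRCm38.p6. In GENCODE M21, Csf1r, Cx3cr1, Itgam, Fcgr2b, Cd74 and Spp1 share exon sequence with other genes, and how their reads were assigned is uncertain.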

Additional observations from a re-analysis of the deposited data

Results flagged for a closer look

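Across 52 results of members and named pathway genes, 5 had a ZT20 sample whose gap to the nearest other sample, divided by the range of the 4 samples, passed Dixon's 95% critical value for 4 samples, where chance would give 2.6 (1 in 20). ZT20 replicate 1 stood alone in 4 of them. Tyrobp was 52.7 TPM there against 26 to 29.7 TPM in the others, with a ratio of 0.863. Cybb was 22.5 TPM against 9.97 to 11.7 TPM (ratio 0.865). Its oxidase partner Ncf1 was 12 TPM against 2.5 to 3.77 TPM (ratio 0.867), and the myeloid factor Spi1 22.5 TPM against 9.88 to 12 TPM (ratio 0.83). The same library had the highest sum of neutrophil markers, 5195 TPM against 820 to 1173 TPM, and the part of neutrophils in these values was not tested. In ZT20 replicate 3, Ciita was 2.23 TPM against 0.61 to 0.772 TPM (ratio 0.9), while the class II genes H2-Ab1, H2-Aa and Cd74 were close to those of replicate 2 (331 and 396, 98.1 and 99.3, and 752 and 748 TPM). ZT8 has 3 samples and was not examined this way.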

How the results depend on the processing

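The count of all genes past the threshold (main 2433, 1899 higher and 534 lower) was 1178 (978 and 200) with no filter on low values, 1336 with the length and GC correction (561 higher), 1579 (1232 and 347) with a neuron marker score as covariate, 3899 (2982 and 917) with array weights, and 0 without both libraries lacking Y-linked transcripts. Median-ratio scaling gave 1128 higher and 1160 lower, quantile normalization 1023 and 814, and leaving out the library highest in neutrophil markers in each group 339 lower. Leaving out 1 library at a time gave 624 to 3055 in all, 543 to 2374 higher and 81 to 681 lower. Members past the threshold (main 5) numbered 0 with no filter (10 at an unadjusted p under 0.05 with limma), 3 with a mean of at least 5 TPM, 2 with quantile normalization, 3 with the length and GC correction, 2 with the neuron covariate (Apoe and Spp1), 9 with array weights, 3 with the neutrophil covariate (Apoe, Lgals3 and Mertk) and 1 without the library highest in neutrophil markers, and 1 to 6 without single libraries. Other pathway genes (main 5) numbered 1, 9, 3, 3, 9, 1 and 0 with no filter, median-ratio scaling, quantile normalization, the neuron covariate, array weights, the neutrophil covariate and without the libraries lacking Y-linked transcripts, and 0 to 8 without single libraries. Members without overlap numbered 14 of 34 (41.2%, against 39.6% of all tested genes) without those libraries, which leaves 2 ZT20 samples, in place of 9. The mean log2 level of the tested members in ZT20 replicates 3 and 4 (4.59 and 4.76) was 4.44 and 4.59 with median-ratio scaling and 4.45 and 4.65 with quantile normalization. Apoe passed in 16 of 19 alternatives and C1qa in 11. For 22 of the 34 tested members no alternative turned the sign. The causes were not tested.

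Replicate numbers occur in both groups, but same-numbered samples did not deviate together (correlations −0.0141, 0.153 and 0.083). With the number as a replicate block, 1174 genes passed (891 higher and 283 lower), 2 members (Apoe and C1qa) and 1 other pathway gene, and the sign turned for Adgre1 (−0.13), H2-DMa (0.021) and Axl (−0.082).

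With median-ratio scaling, the sign turned for Adgre1 (−0.0034), Tyrobp (−0.13), Fcer1g (−0.2), Fcgr2b (−0.0064), Lyz2 (−0.22), Spi1 (−0.053) and Axl (−0.2). With quantile normalization, the sign turned for Adgre1 (−0.13), Tyrobp (−0.12), Fcer1g (−0.11), Fcgr2b (−0.13), Spp1 (0.00094), Spi1 (−0.16) and Axl (−0.27). With the length and GC correction, the sign turned for Adgre1 (−0.017), Fcgr2b (−0.051), Spp1 (0.0041) and Axl (−0.43). With the neuron covariate, the sign turned for Csf1r (0.15), Adgre1 (−0.36), Fcgr2b (−0.38), Cd68 (0.062), Syk (0.72), Ctsd (−0.093), Axl (−0.66) and Tyro3 (−0.32). With array weights, the sign turned for Adgre1 (−0.23), Tyrobp (−0.12), Fcer1g (−0.16), Fcgr2b (−0.32), Lyz2 (−0.094), Syk (0.38) and Axl (−0.35). Without both libraries lacking Y-linked transcripts, the sign turned for Adgre1 (−0.024), Fcgr3 (0.00017) and Axl (−0.25). With the neutrophil covariate, the sign turned for Tyrobp (−0.43), Fcer1g (−0.51), Cd74 (0.027), Lyz2 (−0.82), Spp1 (0.41), Ciita (0.088), H2-DMa (0.28), Spi1 (−0.79) and Ctsb (0.12). Without the library highest in neutrophil markers in each group, the sign turned for Csf1r (0.013), Adgre1 (−0.072), Tyrobp (−0.19), Fcer1g (−0.1), Fcgr2b (−0.4), Lyz2 (−0.087), Syk (0.32) and Axl (−0.32). Among fits without single libraries the sign turned at least once for Csf1r (−0.51 to 0.053), Adgre1 (−0.19 to 0.58), C1qc (−0.52 to 0.25), Tyrobp (−0.33 to 0.57), Fcer1g (−0.32 to 0.34), Fcgr2b (−0.23 to 0.66), Fcgr3 (−0.39 to 0.15), Cd68 (−0.43 to 0.21), Lyz2 (−0.38 to 0.21), Spp1 (−0.55 to 0.37), Gpnmb (−0.68 to 0.11), Ciita (−0.66 to 0.22), H2-DMa (−0.47 to 0.3), Spi1 (−0.46 to 0.49), C4b (−0.58 to 0.15), Syk (−0.59 to 0.42), Ctsb (−0.19 to 0.0031) and Axl (−0.48 to 0.56). Depth is unknown in TPM, so the counting error of low members such as Mrc1, Cd163 and Itgam could not be given.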
